A study of Mus musculus with 6 samples.

Results

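The integrated stress response is described here through 10 genes in the mouse lymphoid line Ba/F3, whose growth needs interleukin-3. They are the transcription factors Atf4, Atf5, Ddit3, Cebpb and Nupr1, the feedback regulators Trib3 and Ppp1r15a, and the effectors Sesn2, Ddit4 and Slc7a11. The genes were chosen by symbol from 41255 listed genes, as known members of the pathway, at a time when the differences between R98S and WT in these same libraries were already known. Their differences between the genotypes, and between clones of a genotype, are therefore given as a description, with no test of their own. Where their outcome in the fit across all tested genes is printed, nothing is read from it. All 10 were among the 11550 genes tested, which had to reach 10 normalized counts on average, and the smallest number of reads for any of them in a library was 37.

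The libraries came from 3 cultures expressing human WT RPL10 (clones 28, 29 and 36) and 3 expressing the R98S mutant of human RPL10 found in T-cell leukemia (clones 11, 13 and 35). The cDNA was brought in by a retrovirus and each culture was started from 1 cell, so a library stands for 1 clone. The p-values set the difference between genotypes against the spread between clones. In both genotypes the mouse Rpl10 gene was targeted by a short hairpin RNA, and all cells received cycloheximide, a blocker of translation elongation, at 100 μg/ml for 5 min before collection. Polyadenylated RNA was sequenced from 1 library per clone, and the values are read counts scaled by the size factor of the library, called normalized counts below. Where values of all clones are listed, they follow the order 28, 29 and 36 in WT and 11, 13 and 35 in R98S.

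The integrated stress response starts with kinases that phosphorylate the initiation factor eIF2, which lowers general protein synthesis while the mRNA of ATF4 is translated more, through short open reading frames in its 5′ leader. ATF4 then raises the transcription of genes for amino acid supply and redox defence, and of further factors such as ATF5 and CHOP, the product of Ddit3. The response limits itself, since TRIB3 binds and restrains ATF4 and CHOP, and the product of Ppp1r15a, GADD34, brings a phosphatase to eIF2.

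Between 21786776 and 24204991 reads were assigned to genes per library, and from 18890 to 19958 genes had a read. Rpl10, the hairpin's target (chrX:74270812-74273135, plus strand), had 2853, 3156 and 1900 normalized counts in WT against 3028, 1883 and 2617 in R98S, with a log2 difference of -0.07 (SE 0.23; limma adjusted p = 0.871); human RPL10 reads that align there would count as well. Of the 12 markers of interleukin-3 dependent pro-B cells, 6 had a mean of at least 10, namely Cd79a, Cd79b, Il3ra, Ptprc and the receptor subunits Csf2rb and Csf2rb2, while Vpreb1, Igll1, Pax5 and Kit stayed at 3 reads or fewer in every library. The summed level of this list ran from 99410 to 119400 in WT and from 136000 to 160700 in R98S, mostly from Csf2rb and Csf2rb2. Its members did not move together. Ptprc, which encodes CD45, was lower in R98S by a log2 difference of -1.33 (adjusted p = 0.00894). Cd79b was higher by 1.22 (adjusted p = 0.0617), Csf2rb2 by 0.62 (adjusted p = 0.0178) and Csf2rb by 0.53 (adjusted p = 0.0509). Il3ra was at -0.18 (adjusted p = 0.432) and Cd79a at 0.20 (adjusted p = 0.449). The 9 myeloid and mast cell markers summed to between 733.2 and 2358 in WT and between 76.55 and 2799 in R98S, with Fcer1a at 0 and R98S clone 13 lowest through Cma1, at 28.58. The 7 T-cell markers ran from 16.12 to 68.05 in WT and from 47.97 to 93.82 in R98S, the 5 erythroid markers from 208.5 to 688.5 and from 373.8 to 587.3, and the 6 stromal and epithelial markers from 9.216 to 23.64 and from 9.252 to 19.39. These sums hide single markers at low levels. Cd3d was higher in R98S by 2.17 (adjusted p = 0.0112), while Lyz2 was at -3.34 (adjusted p = 0.0366) and Hba-a1 at -3.52 (adjusted p = 0.0389). Cd3g went the other way from Cd3d, with 3.072, 3.224 and 43.03 in WT against 0.9382, 1.021 and 1.85 in R98S. Cd3e was also lower in R98S, at 3 reads or fewer in every library. Cd3g and Cd3e were too low to be tested. Whether these levels take part in the results was not tested, and in bulk RNA fewer cells of a type and less RNA per cell cannot be told apart.

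All 10 genes had a lower mean in R98S than in WT. The log2 differences ran from -2.45 for Nupr1 to -0.16 for Sesn2 with a median of -1.02, against a median of -0.011 and quartiles of -0.29 and 0.25 over all tested genes. In 5 of the 10, Atf5, Ddit3, Trib3, Nupr1 and Slc7a11, the R98S mean was at least 2-fold lower. A gene is referred to as called when its adjusted p was under 0.1 in the limma fit across all tested genes. That fit called 6 of the 10 lower, namely Atf5, Ddit3, Trib3, Nupr1, Cebpb and Slc7a11, and 0 higher, beside 13.1% of all tested genes called lower, 10.7% called higher and 23.9% called in either direction. For 4 of the 10 (Atf4, Atf5, Ddit3 and Nupr1) every R98S clone was below every WT clone, as for 19.2% of all tested genes. Nothing is read from these counts, because the genes were picked with this comparison in view.

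**Figure D1:**
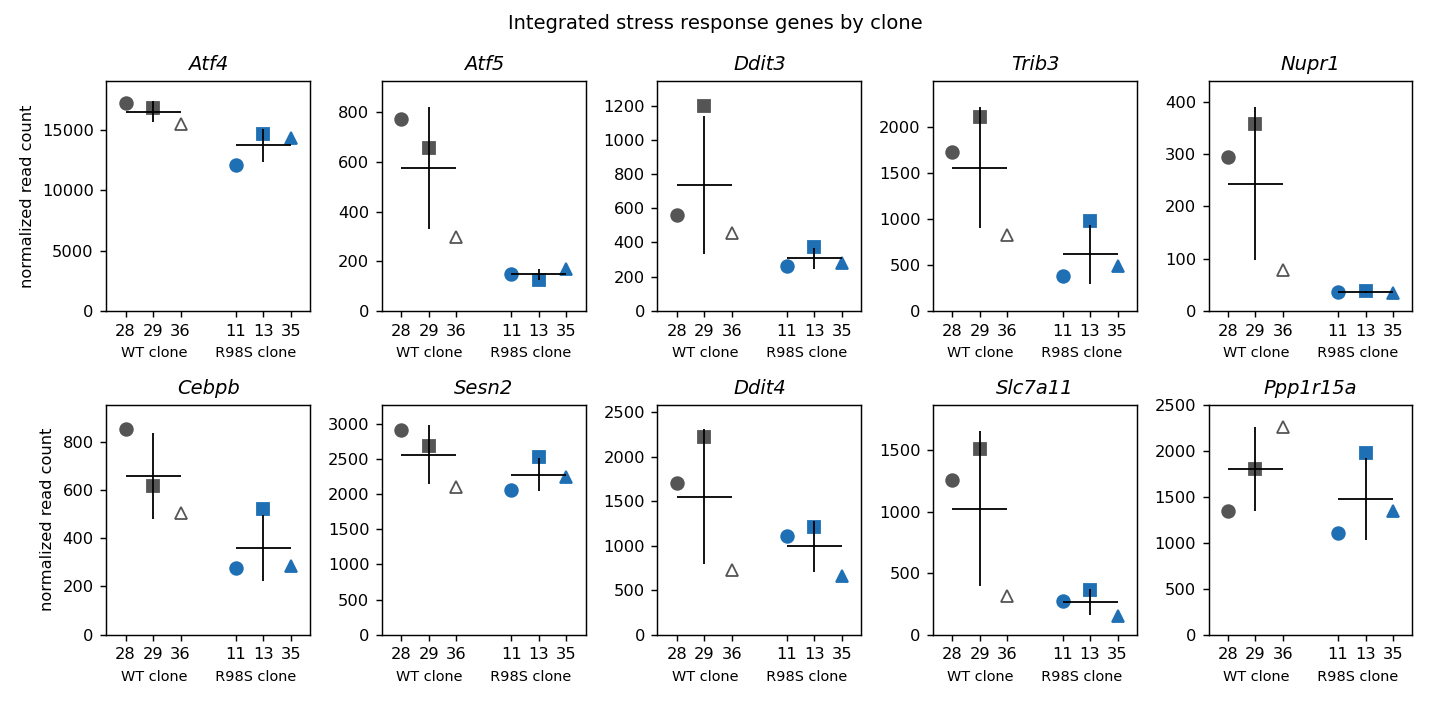
Normalized read count (linear vertical axis starting at 0) of each gene in WT clones 28, 29 and 36 (grey, clone 36 as an open triangle) and R98S clones 11, 13 and 35 (blue), with the group mean as a horizontal line and 1 SD as a vertical line. WT clone 36 is the lowest WT clone in 9 of the 10 panels and the highest in the panel of Ppp1r15a.

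Sequence near the start sites was compared with 3 short motifs, to show which of the genes carry letters known from stress-responsive promoters. All 10 genes matched a RefSeq promoter window of 300 bases (250 before and 50 after the start site, GRCm38.p6), with 11 windows because Atf5 has 2. The core of the C/EBP-ATF response element was searched as TGATGNAA on both strands, and 3 of the 10 genes held it, Slc7a11 in 2 copies and Nupr1 and Trib3 in 1 each, while 3.97% of all 32851 windows did. The RefSeq start site counts as 0 in the positions given here, and the stretches are shown because Nupr1 and Slc7a11 had the largest and the third largest log2 difference among the 10 genes. Capitals mark the motif or its reverse complement, and each stretch reads 5′ to 3′ on the minus strand, the strand of these genes. That of Slc7a11 covers chr3:50443638-50443694, from position -81 to -25. That of Nupr1 covers chr7:126625547-126625606 with the motif at -110 to -103, and that of Trib3 covers chr2:152344029-152344056 with the motif at 14 to 21, just after the RefSeq start site.
Slc7a11: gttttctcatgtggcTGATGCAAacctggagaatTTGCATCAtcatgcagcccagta
Nupr1: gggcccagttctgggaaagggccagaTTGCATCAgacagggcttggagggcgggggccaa
Trib3: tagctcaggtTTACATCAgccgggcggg

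The cAMP response element TGACGTCA was found in 1 of the 10 genes, Ppp1r15a, and in 1.79% of all windows. It lay at -12 to -5 on chr7:45526269-45526306, minus strand, and is shown because Ppp1r15a was also the only one of the 10 with its highest value in WT clone 36.
Ppp1r15a: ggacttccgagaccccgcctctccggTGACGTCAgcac

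The antioxidant response element, searched as TGACNNNGC on both strands, was in 3 of the 10 genes, Cebpb, Sesn2 and Ppp1r15a, and in 12.4% of all windows. The windows of Atf4, Atf5, Ddit3 and Ddit4 held none of the 3 motifs. A match is a run of letters in a fixed window and was not tested as a binding site.

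Upstream start codons were counted in the 5′ leader of each gene's principal transcript in the GENCODE annotation of GRCm38, since leaders of this pathway are known for them. The leader of Ppp1r15a held 7 ATG triplets in 764 bases and that of Atf4 held 3 in 594 bases. The leaders of Atf5 (373 bases) and Ddit3 (186 bases) held 2 each, and those of Nupr1, Sesn2 and Slc7a11 held 1 each. Trib3, Cebpb and Ddit4 had none. In all, 7 of 10 genes had at least 1 such ATG and 4 of 10 at least 2, against 51.9% and 29.9% of 10428 tested genes with an annotated leader. Atf4 and Ppp1r15a, with 3 and 7 ATG triplets, had log2 differences of -0.27 and -0.30, and Trib3 with 0 had -1.35. Nothing is read from setting these side by side, because the values are mRNA levels and do not measure translation.

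Atf4 (chr15:80255184-80257541, plus strand) encodes the central transcription factor of the response. Its normalized count was 17209, 16795 and 15535 in WT, against 12136, 14702 and 14339 in R98S. The groups did not overlap, R98S clone 11 was lowest, and the gap between WT clone 36 and R98S clone 13 was small. The means were 16510 ± 871.8 (SD, n = 3) and 13730 ± 1389 (SD, n = 3), a log2 difference of -0.27 (SE 0.11) on the log2(normalized count + 1) scale used throughout. It was not called. The mRNA was by far the most abundant of the 10 per length, so the largest pool of message in the set was also among the least different between genotypes.

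Atf5 (chr7:44812256-44816658, minus strand) encodes a related bZIP factor that ATF4 and CHOP induce. It was read at 773.1, 655.5 and 299.2 in WT, against 147.3, 125.5 and 170.2 in R98S. WT clone 36 lay below the other WT clones, yet was still 1.76 times the highest R98S clone. Mean levels were 576 ± 246.8 and 147.7 ± 22.35 (SD, n = 3 each), with a log2 difference of -1.86 (SE 0.34). The gene shares 571 bases with Nup62 and 272 with Il4i1, both on the opposite strand and at means of 3870 against 3005 and 37.05 against 16.98 (WT against R98S). The library kit was a stranded one. Whether counting used the strand is not given in the sources used here, so reads of Nup62 in that stretch could be among those of Atf5.

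Ddit3 (chr10:127290774-127296288, plus strand) encodes CHOP, a factor linked to cell death in prolonged stress. Its values were 558.1, 1196 and 455.3 in WT, against 264.6, 375.6 and 282.2 in R98S. WT clone 29 stood well above the other WT clones, and all R98S clones were below all WT clones. The means of 736.5 ± 401.3 and 307.4 ± 59.66 (SD, n = 3 each) gave a log2 difference of -1.14 (SE 0.34), and without WT clone 29 it was -0.73. Ddit3 shares 68 bases with Mars, the methionyl-tRNA synthetase gene on the opposite strand, whose mean went the other way, from 3445 in WT to 3873 in R98S.

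Cebpb (chr2:167688915-167690418, plus strand) encodes C/EBPβ, a bZIP partner of ATF4. It reached 852, 616.8 and 504.4 in WT, against 275.8, 519.5 and 283.1 in R98S. R98S clones 11 and 35 were below every WT clone, but R98S clone 13 was above WT clone 36, so the groups overlapped. The log2 difference was -0.90 (SE 0.29) between means of 657.7 ± 177.4 and 359.5 ± 138.6 (SD, n = 3 each). Tmem189, on the opposite strand, shares 908 bases with it and had means of 865.6 and 901.8.

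Nupr1 (chr7:126623249-126630861, minus strand) encodes a small chromatin protein induced by stress. Its counts were 293.9, 356.8 and 78.06 in WT, against 35.65, 38.78 and 34.23 in R98S. The R98S clones lay within 1.13-fold of each other, while the WT clones spanned 4.57-fold because of clone 36. Even so the groups did not overlap, and the WT mean of 242.9 ± 146.2 was 6.71 times the R98S mean of 36.22 ± 2.329 (SD, n = 3 each). The log2 difference, -2.45 (SE 0.52), was the lowest of the 10, and it was -3.13 without WT clone 36.

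Trib3 (chr2:152337422-152344032, minus strand) encodes the pseudokinase that restrains ATF4 and CHOP. It was at 1733, 2114 and 827.6 in WT, against 376.2, 980.8 and 492.2 in R98S. R98S clone 13 exceeded WT clone 36, and the other clones kept to their side. Means of 1558 ± 660.6 and 616.4 ± 320.9 (SD, n = 3 each) gave a log2 difference of -1.35 (SE 0.42), which became -1.75 without WT clone 36 and also -1.75 without R98S clone 13.

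Ppp1r15a (chr7:45522916-45526268, minus strand) encodes GADD34, the subunit that directs protein phosphatase 1 to eIF2. Its levels were 1349, 1801 and 2255 in WT, against 1111, 1976 and 1347 in R98S. The groups overlapped, with R98S clone 13 above 2 of the WT clones and WT clone 36 above all. The log2 difference of -0.30 (SE 0.25) was not called, and the means were 1801 ± 453 and 1478 ± 447.1 (SD, n = 3 each). Ppp1r15a thus differed from the other feedback gene, Trib3, in its order over the WT clones, with clone 36 highest in place of lowest. It shares 717 bases with Tulp2 on the opposite strand, at means of 355.4 and 366.6.

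Sesn2 (chr4:132492032-132510501, minus strand) encodes a leucine sensor that restrains mTORC1, the growth-promoting kinase complex. The WT clones had 2907, 2683 and 2096, against 2061, 2530 and 2238 in the R98S clones. The ranges overlapped over most of their width, and the log2 difference of -0.16 (SE 0.15) was the smallest of the 10 in size and not called. The means were 2562 ± 419.2 and 2276 ± 236.8 (SD, n = 3 each). Gm12981, on the same strand, shares 6089 bases with Sesn2 and had means of 3.075 and 3.252.

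Ddit4 (chr10:59949669-59951834, minus strand) encodes REDD1, another restraint on mTORC1. Levels of 1705, 2225 and 726.6 were found in WT, against 1106, 1206 and 663.3 in R98S. WT clone 36 was close to R98S clone 35 and below the other R98S clones, so the groups overlapped. Between means of 1552 ± 760.6 and 992 ± 289 (SD, n = 3 each) the log2 difference was -0.55 (SE 0.40), not called. It was -1.02 without WT clone 36, the lowest WT clone, whose removal could only move the difference further from 0.

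Slc7a11 (chr3:49892526-50443614, minus strand) encodes the cystine-glutamate antiporter that feeds glutathione synthesis. Counts of 1258, 1507 and 312.2 in WT stood against 277.7, 359.3 and 149 in R98S. WT clone 36 fell inside the R98S range, and the other WT clones were well above it. The WT mean of 1025 ± 630.1 was 3.91 times the R98S mean of 262 ± 106 (SD, n = 3 each), with a log2 difference of -1.77 (SE 0.58), or -2.48 without WT clone 36. Slc7a11 had the widest span among the WT clones of the 10, 4.83-fold, and spanned 2.41-fold among the R98S clones.

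**Figure D2:**
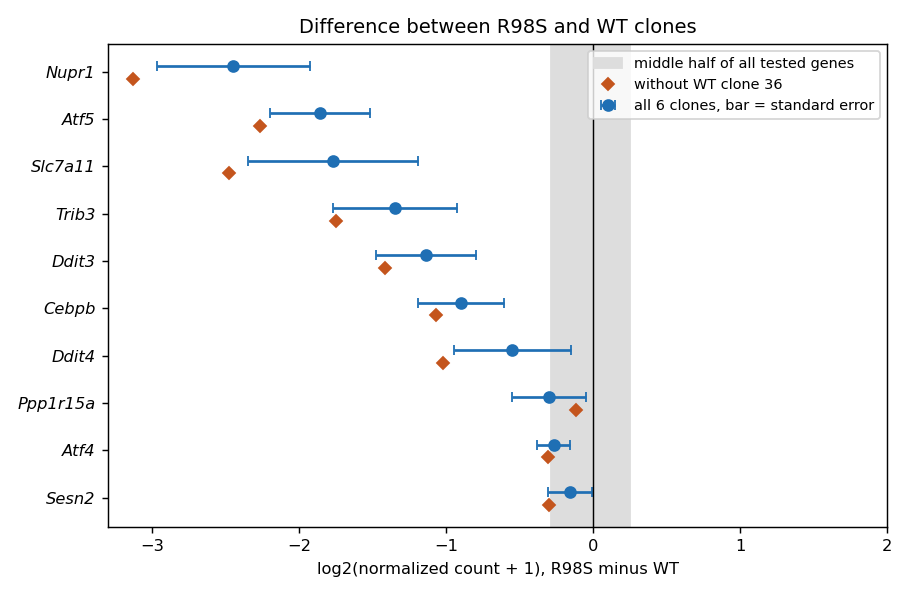
Difference between R98S and WT means on the log2(normalized count + 1) scale for each gene, with all 6 clones (blue, bar of 1 standard error on either side) and without WT clone 36 (orange diamonds); the grey band is the range between the quartiles over all tested genes, -0.29 to 0.25. Atf4, Sesn2 and Ppp1r15a lie near the band, and the diamond lies further from 0 than the blue point for every gene but Ppp1r15a.

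Levels can be compared between genes per kilobase of exon. In WT clones the mean normalized count per kilobase was 9573 ± 505.5 (SD, n = 3) for Atf4, from 884.4 to 613.4 for Ddit4, Ddit3, Trib3, Sesn2 and Ppp1r15a in that order, then 437.3 for Cebpb, 293 for Nupr1, 289 for Atf5 and 104.2 for Slc7a11. Atf4 was above the rest in every clone, and from Ddit4 downward each gene's range over the WT clones overlapped that of the next in order. In R98S clones Atf4 was at 7957 ± 805 per kilobase (SD, n = 3), followed by Sesn2 at 655.1, Ddit4 at 565.1, Ppp1r15a at 503.2, Ddit3 at 345.5, Trib3 at 304.2 and Cebpb at 239. Below these, Atf5 at 74.09, Nupr1 at 43.69 and Slc7a11 at 26.6 did not overlap with their neighbours in the order. The top of the order was the same in both genotypes. Ddit3 and Trib3 stood below Sesn2 and Ppp1r15a in R98S but above them in WT, where the ranges overlapped. In R98S the ranges of Ddit3 and Trib3 overlapped that of Ppp1r15a but not that of Sesn2.

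The range over the WT clones was wide for several genes, spanning 2.27 on the log2 scale for Slc7a11 and 1.61 for Ddit4. The differences between genotype means were -1.77 and -0.55 for these genes. A range of single clones and a difference of means are unlike measures, so nothing is read from their relative size. WT clone 36 had the lowest WT value for 9 of the 10 genes, and R98S clone 13 had the highest R98S value for 9 of the 10, the exception being Atf5. Relative to the mean of the other 2 WT clones on the log2 scale, WT clone 36 was at -2.14 for Slc7a11, -2.04 for Nupr1, -1.42 for Ddit4, -1.25 for Atf5, -1.21 for Trib3 and -0.84 for Ddit3. These 6 lay outside the range from the 5th to the 95th percentile of the same quantity over all tested genes, -0.59 to 0.82. The remaining genes were at -0.52 for Cebpb, -0.41 for Sesn2, -0.13 for Atf4 and 0.53 for Ppp1r15a. The median over the 10 genes was -1.03 for WT clone 36, where that over all tested genes was -0.024. Because the 10 genes were chosen with earlier results of these data known, the place of WT clone 36 is a description. Nothing is read from setting it against all tested genes.

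The other WT clones stood on the opposite side, which follows in part from how the measure is built. The median of the 10 genes was 0.41 for WT clone 28 and 0.63 for WT clone 29, with medians over all tested genes of 0.005 and 0.019. WT clone 29 was the highest WT clone for 5 genes and WT clone 28 for 4. The largest excess of clone 29 was 1.26 for Slc7a11, followed by 1.24 for Ddit3 and 1.23 for Nupr1, whereas Cebpb was at -0.09.

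Within R98S the median of the 10 genes was 0.48 for clone 13, -0.23 for clone 11 and -0.15 for clone 35. Trib3 was at 1.19 in R98S clone 13, Cebpb at 0.89, Slc7a11 at 0.82 and Ppp1r15a at 0.69, while Nupr1 was at 0.15 and Atf5 at -0.33. R98S clone 35 was at -1.08 for Slc7a11 and -0.80 for Ddit4, and R98S clone 11 at -0.88 for Trib3. The genes thus did not move as 1 block between R98S clones. Set against the WT mean, the median of the 10 genes was -1.28 in R98S clone 11, -0.43 in clone 13 and -1.21 in clone 35, and -0.68 in WT clone 36, so that by this median WT clone 36 was below R98S clone 13.

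**Figure D3:**
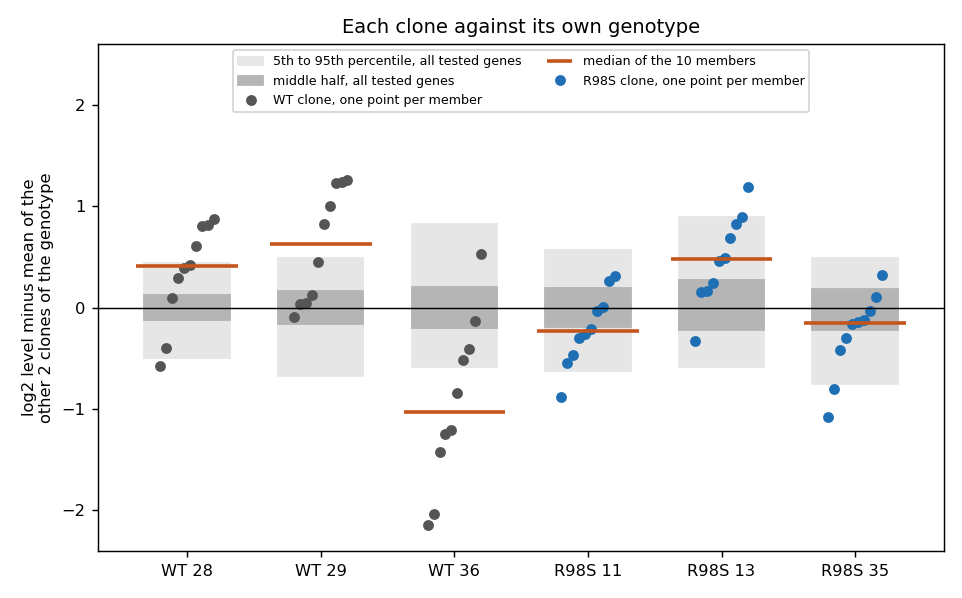
For each clone, the log2 level of each of the 10 genes (points) minus the mean of the other 2 clones of its genotype, with the median of the 10 genes (orange line) and, over all tested genes, the range between quartiles (dark band) and from the 5th to the 95th percentile (light band). The points of WT clone 36 reach down to -2.14 around a median of -1.03, and those of R98S clone 13 lie above 0 for 9 of the 10 genes.

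WT clone 36 was the lowest WT clone for 9 of the 10 genes, so leaving it out could only reduce overlap for those. Without it Ppp1r15a alone still overlapped, and nothing is read from this, as the share over all tested genes was not computed. In that fit 7 were called lower (the 6 named above and Ddit4), where 12.1% of all tested genes were called lower. The median log2 difference of the 10 genes was -1.25 in this fit. Without R98S clone 13 it was also -1.25, and the 7 called lower were the same 6 and Atf4, beside 15.5% of all tested genes. Leaving out any other clone lowered the share of calls over all tested genes as well, while the median of the 10 stayed between -0.96 and -0.83. Without R98S clone 11 or R98S clone 35 the share called lower was 7.54% and 9.36%, and of the 10 genes Atf5 and Nupr1 were called in each. Without WT clone 28 or WT clone 29 it was 6.36% and 6.94%, and Atf5, Ddit3 and Nupr1 were called in each. In these 4 fits the difference ran from -1.25 to -1.06 for Trib3, from -0.93 to -0.70 for Cebpb and from -1.85 to -1.35 for Slc7a11, none of them called there. Nothing is read from which of the 10 genes were called in any of these fits, because they were picked with this comparison in view.

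Genes next to the 10 on the chromosome were examined to see whether their regions differed too. The median log2 difference of the 30 nearest tested genes lay between -0.16 for Slc7a11 and 0.25 for Nupr1, and the median over the 10 regions was 0.005. Of the 30 neighbours of Nupr1, 8 were called higher and 1 lower, while around Ddit4 1 was called higher and 7 lower, and around Atf5 1 higher and 5 lower. Among the 10 nearest genes the lowest medians were -0.35 for Atf5, with 3 called lower and 0 higher, and -0.34 for Ddit4, with 5 called lower and 0 higher. These medians had the sign of the gene's own difference and were smaller in size.

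For Atf4 and Ddit3 the tested genes with the most similar profile were sought, as the smallest root mean square difference between log2 levels centred over the 6 clones, among 9504 genes with a mean of at least 100. Closest to Atf4 were BC029214 (0.039), Pop4 (0.044), Acd (0.045), Adcy7 (0.046) and Dnajc17 (0.047). Closest to Ddit3 were Plin3 (0.18), Slc2a6 (0.207), Smim14 (0.211), Scpep1 (0.216) and Sqstm1 (0.228). Neither list held another of the 10 genes. The nearest of them to Atf4 was Sesn2, at rank 538 of 9503 with 0.12, and the nearest to Ddit3 was Trib3, at rank 116 with 0.383. All these profiles share the same 6 libraries, so likeness between them was given no test.

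The rest of the pathway was followed in 7 lists holding 122 genes, of which 110 were tested. The lists were chosen from textbook knowledge with earlier results of these data known. Of the 110, 10 rose and 18 fell in R98S (adjusted p under 0.1), beside the 10.7% and 13.1% of all tested genes given above, and their median log2 difference was -0.14. Of the 28 called genes, 12 kept the call whichever clone was left out, 8 of those that rose and 4 of those that fell, Gpt2, Edem1, Lonp1 and Trib1. The number that fell was 4 with WT clone 28 left out, 5 with WT clone 29, 9 with R98S clone 11, 11 with R98S clone 35 and 32 with WT clone 36.

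**Figure D4:**
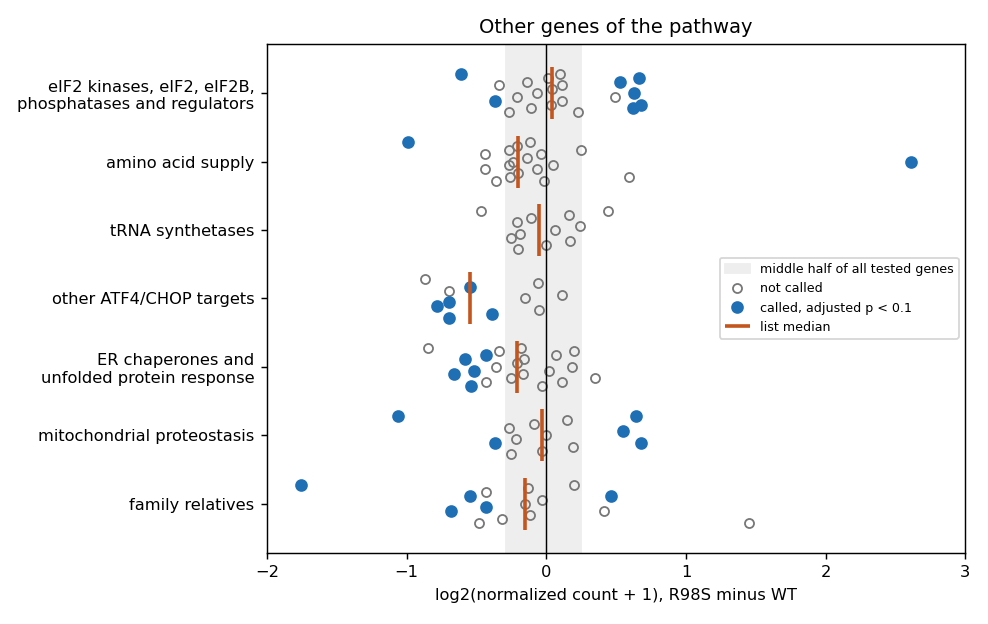
Log2 difference between R98S and WT of every tested gene in the 7 lists, filled where called (limma adjusted p under 0.1) and open otherwise, with the median of each list (orange line) and the range between quartiles of all tested genes (grey band). Called genes lie on both sides in the list of eIF2 regulators and in that of mitochondrial proteostasis, and on the lower side alone in those of other targets and of the endoplasmic reticulum.

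Upstream of Atf4, 5 of 21 genes for eIF2 kinases, eIF2, its exchange factor eIF2B, phosphatase subunits and regulators rose and 2 fell, with a median of 0.04. Among the 4 kinases, Eif2ak1, the heme-regulated kinase, was at 1502, 1523 and 1386 in WT, against 2205, 2188 and 2596 in R98S. It rose by 0.66 on the log2 scale (SE 0.11, adjusted p = 0.00976), with no overlap between the groups. Eif2ak2, the kinase activated by double-stranded RNA, fell by 0.37 (SE 0.12, adjusted p = 0.0797), a call kept in 1 of the 6 fits without a clone, that without R98S clone 11. Eif2ak3, which senses the endoplasmic reticulum, and Eif2ak4, which senses uncharged tRNA, had differences of -0.34 (adjusted p = 0.143) and -0.14 (adjusted p = 0.421), with no overlap between the groups.

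Further upstream genes that rose were Eif2s2, the β subunit of eIF2 (0.68, adjusted p = 0.0263), and the eIF2B subunit genes Eif2b3 (0.62, adjusted p = 0.011), Eif2b4 (0.63, adjusted p = 0.0171) and Eif2b5 (0.53, adjusted p = 0.0308), the last named after its values were seen and not called without R98S clone 11. Impact, an inhibitor of GCN2 activation, fell by 0.61 (adjusted p = 0.0633), but was not called without WT clone 28, WT clone 29, R98S clone 11 or R98S clone 13. The abundant Eif2s1, Eif2s3x and Ppp1ca were not called, at 0.23, 0.11 and -0.11.

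Genes of amino acid supply, which are classical targets of ATF4, were mostly not called when all clones were used. Of 19 tested, 1 rose and 1 fell, with a median of -0.20. Psph, the last enzyme of serine synthesis, rose by 2.61 (SE 0.16, adjusted p = 8.89e-05). Gpt2, a mitochondrial alanine transaminase, was at 4755, 4786 and 2589 in WT, against 1999, 1845 and 2032 in R98S, and fell by 0.99 (SE 0.23, adjusted p = 0.0253). Psat1, Slc7a5 and Slc3a2, the most abundant of those not called, had differences of -0.02, -0.27 and -0.24.

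Clone 36 was the lowest WT clone for 17 of these 19 genes, as for 43.2% of all tested genes, and its median relative to the other WT clones was -0.54. Without it 8 of the 19 fell, adding Asns, Mthfd2, Aldh18a1, Slc3a2, Slc7a5, Slc7a1 and Slc1a4 to Gpt2, and the median was -0.39. Of the 12 cytosolic tRNA synthetase genes, which charge tRNA with amino acids, 0 were called with all clones and the median was -0.06. Clone 36 was lowest for 11 of the 12, at a median of -0.49, and without it Aars, Gars, Lars and Sars fell. Aars, Eprs and Nars, the most abundant of them, had differences of -0.21, 0.06 and -0.0042 with all clones. The low position of WT clone 36 seen in Slc7a11 and Nupr1 was thus also present, at a smaller size, in these 2 lists, which hold none of the 10 genes. It was present as well in the lists of other targets and of the endoplasmic reticulum described below.

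Among 17 other known targets of ATF4 and CHOP, 11 were tested, 5 fell and 0 rose, with a median of -0.55. Those that fell were Gadd45a, a growth arrest gene (-0.78, adjusted p = 0.0857), Eif4ebp1, an inhibitor of cap-dependent translation (-0.70, adjusted p = 0.0418), Bbc3, which encodes the cell death protein PUMA (-0.70, adjusted p = 0.0393), Cebpg, a bZIP partner of ATF4 (-0.55, adjusted p = 0.0294), and Map1lc3b, an autophagy gene named after its values were seen (-0.39, adjusted p = 0.0568). Cebpg lost its call without WT clone 28, and the other 4 lost theirs without WT clone 28, WT clone 29, R98S clone 11 or R98S clone 35. Ero1l, Sqstm1 and Xpot, the most abundant of those not called, were at -0.70, -0.87 and -0.06. Clone 36 was the lowest WT clone for 9 of the 11 tested genes, as for 43.2% of all tested genes, with a median of -0.41 relative to the other WT clones. Without it 6 fell, beside 12.1% of all tested genes called lower. Atf3, Chac1, Vldlr, Stc2, Fgf21 and Gdf15 had at most 7 reads in any library and were not tested, so several strongly inducible targets were near the floor of detection in both genotypes.

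Of 21 tested genes for chaperones and the unfolded protein response of the endoplasmic reticulum, 5 fell and 0 rose, with a median of -0.21. They were Edem1 (-0.66, adjusted p = 0.021), Xbp1 (-0.58, adjusted p = 0.0959), Dnajb9 (-0.54, adjusted p = 0.0427), Herpud1 (-0.52, adjusted p = 0.0837) and Calr (-0.43, adjusted p = 0.0878), the last named after its values were seen. Edem1 kept its call whichever clone was left out, Dnajb9 lost it without WT clone 28 or 29, and the others lost it without WT clone 28, WT clone 29 or R98S clone 11, as well as without R98S clone 35 (Xbp1 and Herpud1) or R98S clone 13 (Calr). Hspa5, which encodes the main chaperone BiP, was at 20027, 31309 and 15054 in WT, against 16820, 19393 and 18560 in R98S. The groups overlapped, with a difference of -0.21 (adjusted p = 0.576), and Hsp90b1 and Canx were not called at -0.17 and 0.11. Clone 36 was the lowest WT clone for 20 of the 21 genes, with a median of -0.37 relative to the other WT clones, and without it 8 fell.

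In the list of mitochondrial proteostasis 3 of 13 genes rose and 2 fell, with a median of -0.03. The chaperonin genes Hspe1 (0.68, adjusted p = 0.0305) and Hspd1 (0.64, adjusted p = 0.0333) and the prohibitin gene Phb (0.55, adjusted p = 0.0235) rose. The protease genes Lonp1 (-1.06, adjusted p = 0.00553) and Afg3l2 (-0.37, adjusted p = 0.0513) fell, the latter not called without WT clone 28, WT clone 29, WT clone 36 or R98S clone 11. Hspa9, Yme1l1 and Phb2 were not called, at -0.22, -0.03 and 0.15.

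Relatives of the 10 genes were compared last. Of 15 tested, 1 rose and 4 fell, with a median of -0.15. Trib1, a relative of Trib3, was at 143.4, 158 and 309.2 in WT, against 45.03, 89.81 and 42.56 in R98S. It fell by 1.76 (SE 0.39, adjusted p = 0.0225), and its highest value was in WT clone 36, the WT clone in which Trib3 was lowest. Cebpd, a relative of Cebpb, fell by 0.68 (adjusted p = 0.0442) and Atf7 by 0.43 (adjusted p = 0.0382), both not called without WT clone 28 or 29, and Cebpg, named above, was the fourth. Creb1 rose by 0.46 (adjusted p = 0.071), a call kept in 1 of the 6 fits, that without R98S clone 13. Atf1, Atf2 and Atf6, the most abundant of those not called, had differences of -0.13, -0.15 and -0.43.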

How the data were processed

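Total mRNA of 6 monoclonal Ba/F3 cultures, 3 WT and 3 R98S, was analysed, with groups taken from the sample labels. The authors removed ribosomal and transfer RNA reads with Bowtie2, aligned the rest to mm10 with TopHat and kept alignments with a mapping quality of at least 10; their processing notes also name SAMtools and HTSeq. The annotation and the strand setting of the counting are not given in the sources used here. The deposited unit is a signal: for each gene, the authors' read count after division by the DESeq2 size factor of its library. In every library 100% of values above 0 were whole multiples of 1 step (tolerance 1e-06), which gave back the reads. The step of WT clone 36 was 1.0008, so near 1 that rounding could mimic it. Replicate libraries were not duplicates (18.7 to 65.2 times the chi-square expected from counting error alone), and 3 reads, or 2.78 to 3.22 normalized counts, were taken as the floor.

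In R 4.3.3, limma 3.58.1 with an intensity trend was fitted, two-sided, to log2(normalized count + 1) for the 11550 genes with a mean of at least 10, and adjusted by the Benjamini-Hochberg method over all of them. The threshold of 0.1 is the false discovery rate of the study. Fold changes on this scale understate those of weakly expressed genes. Promoter windows came from RefSeq (GRCm38.p6) and gene positions and leaders from GENCODE (GRCm38). The members and lists were chosen with earlier results of these data known. Named are the 10 genes, Rpl10, the 4 eIF2 kinases, in each list up to 4 called genes per direction with the largest difference and up to 3 genes not called with the highest mean, and the 5 genes nearest in profile to Atf4 and to Ddit3; others are stated as named after their values were seen.

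Alternatives were a threshold of 0.05, no trend, pseudocounts of 0.5 and 5, a filter at 50 or none, a common total or upper quartile, leaving out each clone, and the count tests of edgeR 4.0.16 (quasi-likelihood, TMM) and DESeq2 1.42.0 (Wald) on recovered reads, which called 2746 and 3105 genes against 2755. The steps were tested on simulated data.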

Additional observations from a re-analysis of the deposited data

How the results depend on the processing

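No paired analysis was possible because no clone number occurs in both genotypes. All 150 values of the 10 genes under the alternatives stayed below 0, and their median ran from -1.25 to -0.83. Without the intensity trend 3 of the 10 were called (Atf5, Ddit3 and Nupr1), beside 1247 of all tested genes called lower. Under the other alternatives that kept all clones and the threshold of 0.1, 6 were called. Beside these, from 1229 (no expression filter) to 1649 (DESeq2) of all tested genes were called lower. At a threshold of 0.05, 2 of the 10 were called. That threshold gave 1722 called genes in place of 2755, 776 higher and 946 lower, and 10 genes of the pathway lists fell in place of 18. Leaving out 1 clone at a time gave from 1327 to 3219 called genes, from 591 to 1432 higher and from 736 to 1787 lower, and from 13 to 42 called list genes, from 4 to 32 of them lower; these fits leave a genotype with 2 clones. With a common upper quartile 1487 genes were higher and 1339 lower, against 1241 and 1514.

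Of 784 comparisons for 49 other named genes, 684 kept direction and call, 67 lost the call, 10 gained one and 23 changed direction, all for genes not called with all clones. Scaling to the same total gave 0.016 for Nars and 0.00084 for Psat1, and to the same upper quartile 0.036 for Nars, 0.021 for Psat1 and 0.0087 for Yme1l1. Leaving out a clone gave log2 differences from -0.012 to 0.16 for Eprs, -0.37 to 0.06 for Hsp90b1, -0.46 to 0.07 for Hspa5, -0.18 to 0.12 for Nars, -0.15 to 0.084 for Psat1, -0.29 to 0.13 for Rpl10, -0.19 to 0.015 for Xpot and -0.12 to 0.018 for Yme1l1. The cause was not tested. Depth was similar in all libraries. How far counting error and the spread between 3 clones per genotype each set the precision of the 10 genes was not tested.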
